A study of Homo sapiens with 12 samples.

Results

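The tubulin isotypes measured here are 10 human genes, namely the alpha-tubulins TUBA1A, TUBA1B and TUBA1C, the beta-tubulins TUBB, TUBB2A, TUBB2B, TUBB3, TUBB4B and TUBB6, and the gamma-tubulin TUBG1. They were chosen by name from the 28008 genes of the count tables, and all 10 are in both tables. RNA was sequenced from a pair of established human cell lines, QGP-1 and BON-1, both derived from pancreatic neuroendocrine tumors (pNETs). Both lines carried tet-MUC1shRNA in all 4 groups, a vector from which doxycycline (DOX) induces a hairpin RNA against MUC1, and were transduced and selected with puromycin. In each line 3 libraries came from cells treated with vehicle (DMSO) and 3 from cells treated with 500 ng/mL DOX, for 7 days. The study describes the libraries of a group as triplicate cultures. No DOX library of cells with a control hairpin is among the 12, so MUC1 silencing and DOX itself cannot be told apart. The lines were grown in different media, so line and medium cannot be told apart either. The comparisons addressed here are DOX against vehicle within each line and the level of each tubulin in each line.

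Alpha- and beta-tubulin form the dimer that polymerizes into microtubules, the filaments of the mitotic spindle and of intracellular transport, and gamma-tubulin nucleates them within a ring complex at the centrosome. Vertebrates carry several genes for each, and TUBB3, TUBB2B and TUBA1A are best known from neurons, while TUBA1B, TUBA1C, TUBB and TUBB4B are used widely. Cells also set the amount of alpha- and beta-tubulin mRNA by autoregulation, in which TTC5 binds the first residues of a nascent tubulin and brings about decay of its mRNA when free dimer is in excess.

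The first bases of the coding sequences are shown because they encode the residues that this autoregulation reads. Each is the first 30 bases of the coding sequence of the GENCODE release 44 canonical transcript, 5′ to 3′, with the first 12 bases in capitals.
TUBA1A: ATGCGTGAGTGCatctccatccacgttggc
TUBA1B: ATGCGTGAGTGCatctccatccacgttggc
TUBA1C: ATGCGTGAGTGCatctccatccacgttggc
TUBB: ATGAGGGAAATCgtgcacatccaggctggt
TUBB2A: ATGCGCGAGATCgtgcacatccaggcgggc
TUBB2B: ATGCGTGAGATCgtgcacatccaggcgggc
TUBB3: ATGAGGGAGATCgtgcacatccaggccggc
TUBB4B: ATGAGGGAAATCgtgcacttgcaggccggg
TUBB6: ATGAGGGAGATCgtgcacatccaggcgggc
TUBG1: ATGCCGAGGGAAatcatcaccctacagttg
The 3 alpha-tubulins share all 30 bases. The 6 beta-tubulins vary within the first 12 only in bases that leave the encoded residues the same (MREI), and TUBG1 differs from both classes.

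Some of the isotypes are close copies of one another, which bears on their counts. Over the whole coding sequence TUBB2A and TUBB2B were 98.1% identical, TUBA1A and TUBA1B 97.2%, and TUBA1B and TUBA1C 97.3%. Of the 100-base windows of the TUBB2A coding sequence 65.7% were also found in TUBB2B, and of those of TUBA1B 39.0% were found in another of the 10 genes. TUBB6 shared 0% of such windows with any other gene, and TUBB shared 10.6%, all with the pseudogene TUBBP1. Windows of 50 bases were shared more often. These values were then 72.4% for TUBB2A, 68.3% for TUBA1B, 1.55% for TUBB6 and 33.4% for TUBB, of which TUBBP1 held 29.2%. How reads that match several genes were counted is not given in the sources used here, so the split between TUBA1A, TUBA1B and TUBA1C and between TUBB2A and TUBB2B is uncertain. Of the TUBG1 windows 18% were also in TUBG2. TUBB3 overlaps an annotated readthrough gene that holds 95.6% of its 100-base coding windows. In the GRCh38 annotation the alpha-tubulin genes lie together, TUBA1B at chr12:49127782-49131397 and TUBA1A at chr12:49184686-49189080 on the minus strand and TUBA1C at chr12:49188736-49274600 on the plus strand, so that TUBA1A and TUBA1C overlap at their ends. TUBB2A (chr6:3153497-3157544) and TUBB2B (chr6:3223324-3231730) are neighbours on the minus strand. TUBB3 lies at chr16:89921392-89938761, TUBB4B at chr9:137241287-137243707, TUBB6 at chr18:12307669-12344320 and TUBG1 at chr17:42609641-42615238, all on the plus strand.

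MUC1 was checked first, since it is the gene silenced. In QGP-1 cells its level was 7.37, 5.95 and 5.79 CPM (counts per 1000000 counts of a library, scaled by TMM over the 12 libraries) with vehicle and 0.722, 1.07 and 0.762 with DOX. In BON-1 cells it was 20.2, 20.1 and 15.0 with vehicle and 1.42, 2.60 and 3.93 with DOX. MUC1 fell in both lines, with log2 fold changes of -2.91 ± 0.23 and -2.79 ± 0.22 (3 against 3 libraries, where ± on a log2 value is the SE throughout). The adjusted p was 8.24e-07 in QGP-1 and 6.51e-11 in BON-1 by edgeR's quasi-likelihood test with Benjamini-Hochberg adjustment, the test behind every call below at a threshold of 0.05. Libraries held 38224144 to 50525926 counts in QGP-1 and 15981954 to 28484324 in BON-1. All 8 neuroendocrine markers exceeded 1 CPM in QGP-1 and 7 of 8 in BON-1, where NCAM1 was at 0 to 0.107 CPM with vehicle. The 5 fibroblast markers summed to between 1.17 and 11.1 CPM over all libraries and the 3 endothelial markers to between 0.484 and 1.42, while the leukocyte list summed to at most 55.4, of which CD68, a lysosomal protein, made up to 50.7. In each group 1 library lay farther from the other 2 than those lay from each other, by the chi-square per gene between libraries. These were QGP-1 vehicle replicate 3 (24.8 and 20.3, against 8.48), QGP-1 DOX replicate 1 (28.3 and 29.7, against 11.4), BON-1 vehicle replicate 1 (18.1 and 11.97, against 5.92) and BON-1 DOX replicate 3 (22.5 and 17.2, against 7.25). Results that rest on 1 library are given with and without it. In these bulk samples fewer expressing cells and less RNA per cell cannot be told apart.

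Per length of the canonical transcript, QGP-1 and BON-1 cells led with different alpha-tubulins and the same beta-tubulin. In QGP-1 vehicle libraries the order on the scale of CPM per kilobase was TUBA1A (699 ± 67.0, SD, n = 3), TUBB (638 ± 26.0), TUBA1B (413 ± 12.1), TUBB4B (183 ± 12.8), TUBB3 (170 ± 17.9) and TUBA1C (78.6 ± 2.18). TUBG1, TUBB2B, TUBB2A and TUBB6 followed between 46.2 ± 1.94 and 10.9 ± 0.210. TUBA1A and TUBB, TUBB4B and TUBB3, and TUBG1 and TUBB2B were neighbours in that order whose libraries overlapped. In BON-1 vehicle libraries the order was TUBA1B (774 ± 26.2), TUBB (479 ± 52.5), TUBB4B (199 ± 16.7), TUBA1C (155 ± 4.85), TUBB3 (85.0 ± 6.35) and TUBA1A (53.5 ± 2.82), and no neighbours overlapped. TUBB2B, a beta-tubulin of developing neurons, came last there at 0.364 ± 0.180 CPM per kilobase.

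**Figure D1:**
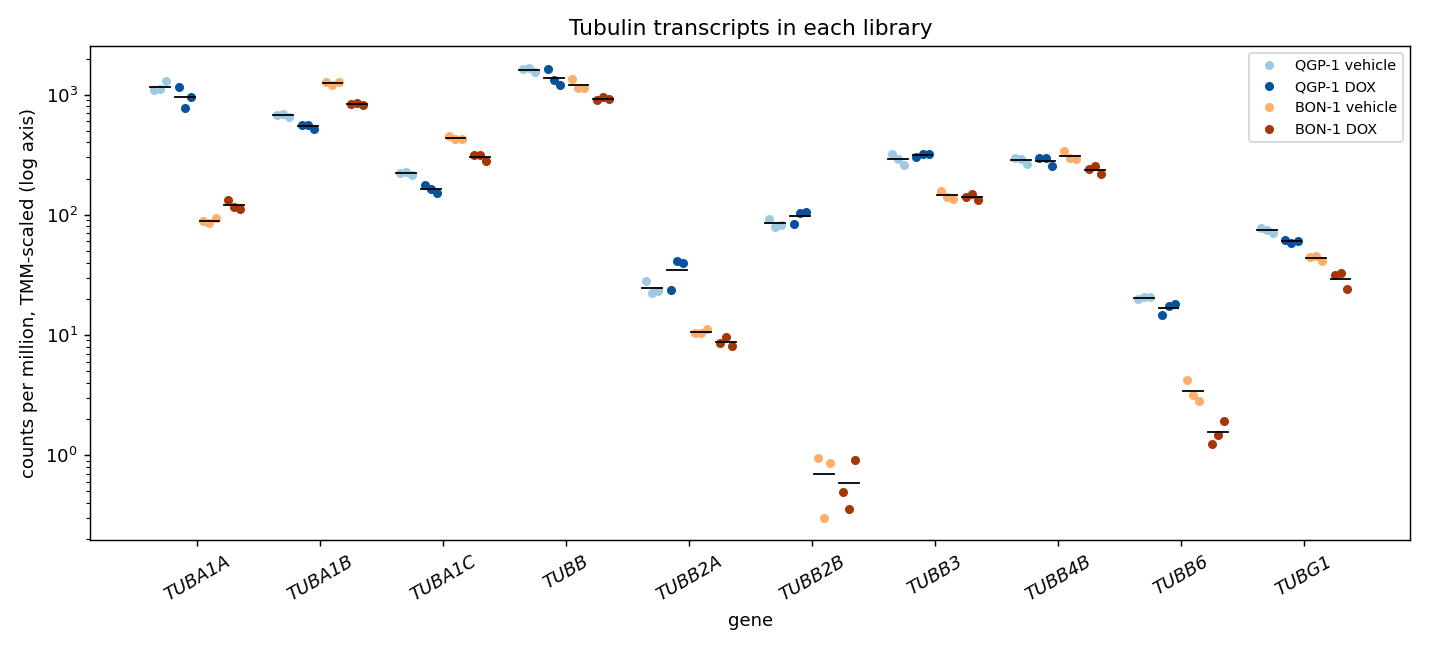
Level of each tubulin gene in the 12 libraries, in TMM-scaled CPM on a log axis. Each point is 1 library, colours are the 4 groups and black lines are group means of 3 libraries; the BON-1 libraries lie far below the QGP-1 libraries for TUBA1A, TUBB2B and TUBB6 and above them for TUBA1B and TUBA1C in vehicle.

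The 2 lines differed in 9 of the 10 isotypes with vehicle, against 74.9% of all 16598 genes tested. In BON-1 cells 7 isotypes were lower than in QGP-1 (37.5% of all genes were) and 2 were higher (37.5%), and the libraries of 9 isotypes did not overlap between the lines (77.6% of all genes). The largest difference was in TUBB2B, at 92.2, 79.3 and 82.9 CPM in QGP-1 and 0.941, 0.302 and 0.854 in BON-1, where it rested on 7 to 27 counts per library. All 3 BON-1 libraries lay below every QGP-1 library, with a log2 difference of -6.90 ± 0.20 and an adjusted p of 2.85e-20 by edgeR. Its coding sequence is shared in large part with TUBB2A, and the part of shared reads in these few counts was not tested.

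TUBA1A, the alpha-tubulin most abundant in developing neurons, was at 1091, 1118 and 1297 CPM in QGP-1 vehicle libraries and at 88.1, 85.6 and 94.8 in BON-1. The groups were far apart, with a log2 difference of -3.71 ± 0.12 and an adjusted p of 3.78e-19 by edgeR. TUBB6, a widely expressed minor beta-tubulin, was also lower in BON-1 (log2 difference -2.56 ± 0.16), as were TUBB2A (-1.22 ± 0.16), TUBB3 (95% confidence interval -1.17 to -0.83), TUBG1 (-0.76 ± 0.10) and TUBB (-0.41 ± 0.10).

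TUBA1B, the main alpha-tubulin of dividing cells, stood at 682, 684 and 649 CPM in QGP-1 and at 1285, 1210 and 1282 in BON-1 with vehicle. It was higher in every BON-1 library, by 0.91 ± 0.07 on the log2 scale (adjusted p 2.10e-11 by edgeR), and TUBA1C by 0.98 ± 0.07 (1.25e-11). TUBB4B, at 263 to 300 CPM in QGP-1 and 292 to 340 in BON-1, overlapped between the lines and was not called (0.12 ± 0.08, 95% confidence interval -0.05 to 0.30), but with library size in place of TMM it was called higher in BON-1 at 0.23 (adjusted p 0.0142 by edgeR). Under that scaling the median of all genes moved from 0.02 to 0.13.

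Markers of neurons differed between the lines as well. MAP2, a dendritic microtubule protein, was at 488 to 507 CPM in QGP-1 vehicle libraries and at 0 to 0.0862 in BON-1, and DCX, which binds microtubules in migrating neurons, at 316 to 360 and at 0.0348 to 0.172. NEFL and NEFM, neurofilament subunits, went the other way, with 0 in QGP-1 and 16.1 to 16.9 and 17.1 to 21.8 CPM in BON-1. RBFOX3, a nuclear marker of mature neurons, stayed at or below 0.0538 CPM in the vehicle libraries of both. The part of these differences in those of the tubulins was not tested.

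**Figure D2:**
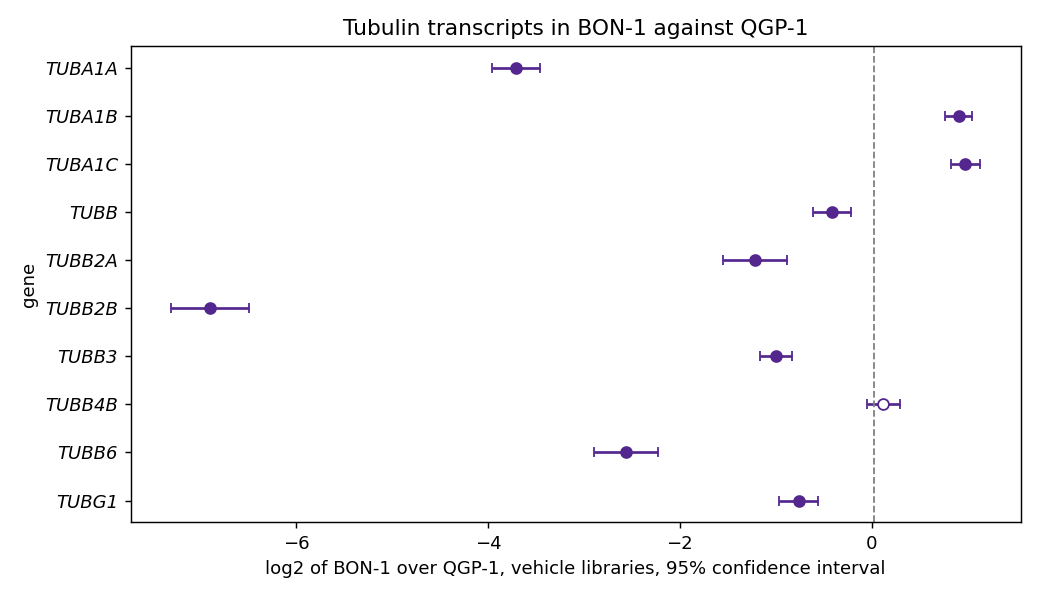
Log2 difference of each tubulin between BON-1 and QGP-1 vehicle libraries (3 against 3), with its 95% confidence interval and filled points where called by edgeR. The dashed line is the median of all genes (0.02); TUBB2B lies at -6.90, TUBA1A at -3.71, and TUBA1B and TUBA1C near 1.

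On the counts in QGP-1 cells TUBA1B, TUBA1C, TUBB6 and TUBG1 fell with DOX, TUBB2A rose and the other 5 isotypes were not called, whereas on the deposited TPM scale (transcripts scaled by length and library) all 10 had positive log2 fold changes. The median of all genes was 0.59 on that scale, and relative to it 6 isotypes were lower and 4 higher, 9 with the same sign as in the counts. The noncoding RNAs RN7SK, RN7SL1 and RN7SL2 took 78.8 to 80.3% of the TPM of a QGP-1 vehicle library and 71.2 to 75.4% with DOX. On the counts 35.0% of all 15089 genes tested were called, 17.7% lower and 17.3% higher (2676 and 2610 genes). By limma on log2(TPM + 1) 91 and 9166 of 10561 genes were. The median log2 fold change of the 10 isotypes was -0.24, against -0.01 for all genes. The libraries of 4 isotypes did not overlap between groups, against 46.8% of all genes.

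TUBA1C, an alpha-tubulin close to TUBA1B, had the most negative change in QGP-1. Its level was 224, 226 and 215 CPM with vehicle and 176, 165 and 151 with DOX. Every DOX library lay below every vehicle library, with a log2 fold change of -0.44 ± 0.07 and an adjusted p of 0.000352 by edgeR. TUBA1B went from 682, 684 and 649 CPM to 558, 559 and 520, again without overlap (-0.30 ± 0.06, adjusted p 0.00233 by edgeR). TUBG1 went from 77.1, 74.8 and 70.9 CPM to 61.9, 58.1 and 61.0 (-0.30 ± 0.07, adjusted p 0.00608 by edgeR), and these 3 calls held without any 1 library. TUBB6 went from 20.01, 20.8 and 20.6 CPM to 14.6, 17.3 and 18.1 (-0.30 ± 0.11, adjusted p 0.0414 by edgeR). Its call was lost without any 1 library other than QGP-1 DOX replicate 3, at adjusted p up to 0.146, with log2 fold changes of -0.36 to -0.20 over the 6 fits.

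QGP-1 DOX replicate 1 decided several of the remaining values. TUBB2A, whose product is a beta-tubulin abundant in brain, was at 28.4, 22.4 and 23.4 CPM with vehicle and at 23.7, 41.1 and 40.0 with DOX, so that replicate 1 lay within the vehicle range and the other 2 DOX libraries above it. The log2 fold change was 0.50 ± 0.17 (adjusted p 0.0316 by edgeR), and it was 0.72 without QGP-1 DOX replicate 1 (adjusted p 0.000172). The call was lost without vehicle replicate 2 or 3 or DOX replicate 2 or 3, with adjusted p up to 0.129, and by DESeq2 (adjusted p 0.141). TUBA1A was at 1091, 1118 and 1297 CPM with vehicle and at 1168, 773 and 952 with DOX, TUBB at 1626, 1655 and 1530 and at 1639, 1314 and 1202, and TUBB2B at 92.2, 79.3 and 82.9 and at 83.7, 103 and 105. In each of the 3 genes DOX replicate 1 lay inside the vehicle range. They were not called, with log2 fold changes of -0.28 ± 0.12 for TUBA1A (adjusted p 0.0811 by edgeR), -0.21 ± 0.09 for TUBB (0.100) and 0.20 ± 0.09 for TUBB2B (0.113). Without QGP-1 DOX replicate 1 all 3 were called, at -0.43, -0.34 and 0.30. TUBB3 (0.12 ± 0.08, 95% confidence interval -0.05 to 0.28) and TUBB4B (-0.01 ± 0.08, -0.18 to 0.16) overlapped between groups and were not called with or without it.

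In BON-1 cells 6 isotypes fell with DOX, TUBA1B, TUBA1C, TUBB, TUBB4B, TUBB6 and TUBG1, and TUBA1A rose, while on the deposited TPM scale, where the median of all genes was -0.31, the 8 isotypes tested (all but TUBB2B and TUBB6) had the same signs as in the counts but 0 were called by limma (3 lower and 0 higher at an unadjusted p under 0.05, lowest adjusted p 0.166). On that scale RN7SK, RN7SL1 and RN7SL2 took 50.9 to 65.6% of a BON-1 vehicle library and 74.3, 70.4 and 53.4% of DOX replicates 1, 2 and 3. Leaving them out was a choice made after seeing the data. Of 9 isotypes then tested by limma, 7 were lower and 1 higher at an unadjusted p under 0.05 (lowest adjusted p 0.000332). Of all 13559 genes in that fit 2395 were lower and 1410 higher at an adjusted p below 0.05. The share of all genes at an unadjusted p was not counted in either TPM fit. On the counts 35.3% of all 14625 genes tested were called, 18.3% lower and 17.0% higher (2677 and 2488 genes). By limma on log2(TPM + 1) 229 and 29 of 11954 genes were. The median log2 fold change of the 10 isotypes was -0.39, against -0.01 for all genes, and the libraries of 8 isotypes did not overlap between groups, against 45.9% of all genes.

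TUBA1B was at 1285, 1210 and 1282 CPM with vehicle and at 841, 847 and 815 with DOX. The groups were well separated, with a log2 fold change of -0.60 ± 0.08 and an adjusted p of 9.02e-07 by edgeR. TUBA1C went from 452, 431 and 427 CPM to 315, 312 and 281 (-0.54 ± 0.08, adjusted p 3.17e-06 by edgeR). TUBA1A moved the other way, from 88.1, 85.6 and 94.8 CPM with vehicle to 132, 117 and 113 with DOX. Each DOX library of TUBA1A lay above each vehicle library (0.42 ± 0.08, adjusted p 0.000218 by edgeR).

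Among the beta-tubulins, TUBB was at 1357, 1126 and 1131 CPM with vehicle and at 897, 959 and 923 with DOX, without overlap (-0.39 ± 0.08, adjusted p 0.000638 by edgeR). TUBB4B, a beta-tubulin also used in cilia, was at 340, 300 and 292 CPM and at 239, 256 and 218 (-0.40 ± 0.08, adjusted p 0.000324 by edgeR), likewise without overlap. TUBB6 had the most negative log2 fold change, -1.15 ± 0.31 (adjusted p 0.00404 by edgeR), from 121, 74 and 53 counts with vehicle to 20, 29 and 38 with DOX, the fewest behind any BON-1 call among the 10. TUBG1 was at 44.2, 45.5 and 41.5 CPM with vehicle and at 31.3, 33.1 and 24.0 with DOX (-0.58 ± 0.11, adjusted p 0.000126 by edgeR). On the counts these 7 calls held without any 1 library. TUBB3 overlapped between groups at 132 to 157 CPM over the 6 libraries (-0.05 ± 0.08, 95% confidence interval -0.21 to 0.11) and was not called. TUBB2A (10.5, 10.3 and 11.2 CPM, then 8.55, 9.67 and 8.11) did not overlap between groups but was not called either (-0.28 ± 0.16, adjusted p 0.169 by edgeR). TUBB2B, at 7 to 27 counts, had an interval of -1.41 to 0.89, so no difference was detectable at this depth.

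Markers of other cell types moved with DOX in the same libraries. Of the neuron list 2 genes were tested in QGP-1 and both were higher, MAP2 from a mean of 500 to 727 CPM (0.54 ± 0.06, adjusted p 2.09e-05 by edgeR) and DCX from 339 to 445 (0.39 ± 0.07, 0.000624), and the list summed to 823 to 848 CPM with vehicle and 1163 to 1183 with DOX. In BON-1 2 were tested and both were higher, NEFL from 16.4 to 27.9 CPM (0.75 ± 0.12, adjusted p 2.00e-05 by edgeR) and NEFM from 19.6 to 32.1 (0.70 ± 0.12, 4.34e-05), with sums of 33.4 to 38.2 and 53.6 to 70.7. RBFOX3 was near 0 in both lines. The keratins KRT8 (0.62 ± 0.10) and KRT18 (0.58 ± 0.08) were higher in BON-1 and the epithelial adhesion gene EPCAM was not called (-0.03). In QGP-1 none of the 3 was called on the counts at the main settings, though KRT8 (-0.24, adjusted p 0.0626 by edgeR) was without vehicle replicate 3 or DOX replicate 2 (adjusted p down to 0.00732). With all 6 libraries KRT8 was called lower by DESeq2 (adjusted p 0.0430) and by edgeR without the low-count filter (0.00803). CD68 was higher in BON-1, from 24.5 to 49.5 CPM (adjusted p 4.33e-09 by edgeR), and not called in QGP-1, where the other leukocyte gene tested was higher. Of 8 neuroendocrine markers tested in QGP-1 1 was lower and 2 higher (17.7% and 17.3% of all genes). Of 7 tested in BON-1 2 were lower and 2 higher (18.3% and 17.0%). Among the fibroblast markers 1 was tested in each line, lower in QGP-1 and higher in BON-1. The part of these movements in the tubulin changes was not tested.

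**Figure D3:**
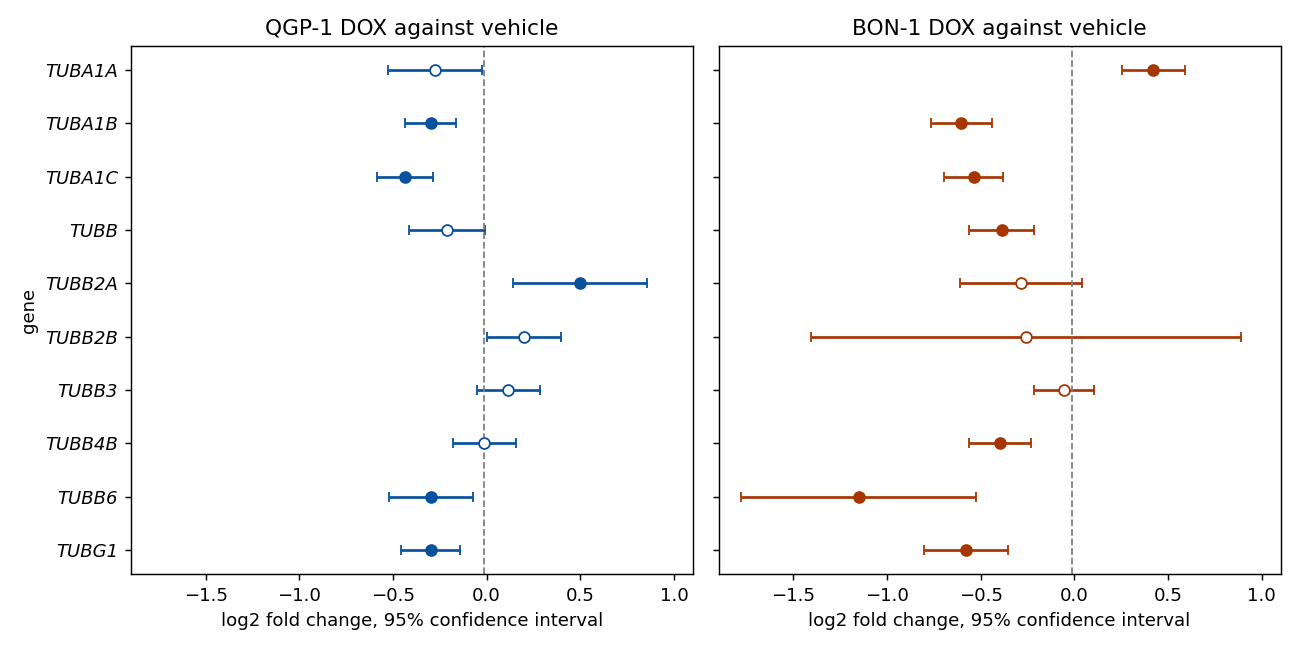
Log2 fold change of each tubulin with DOX against vehicle in QGP-1 (left) and BON-1 (right), 3 against 3 libraries, with 95% confidence intervals, filled points where called by edgeR on the counts, and a dashed line at the median of all genes. TUBA1B, TUBA1C, TUBB6 and TUBG1 lie below 0 with filled points in both panels, although on the deposited TPM scale all 10 genes lie above 0 in QGP-1, as does the median of all genes (0.59).

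Of the 10 isotypes 4 were called lower in both lines, against 7.23% of the 13535 genes tested in both, although the TPM scale turned the sign of those 4 in QGP-1 as given above. Called higher in both lines were 0 of the 10 isotypes and 6.88% of those 13535 genes. TUBA1A was called higher in BON-1 alone and TUBB2A in QGP-1 alone. The difference in response itself was tested as the interaction of line and DOX over the 12 libraries, in which 5 isotypes were called, against 16.7% of 16598 genes (7.92% lower and 8.80% higher in BON-1). TUBA1A responded higher in BON-1 than in QGP-1, by 0.71 ± 0.15 on the log2 scale (adjusted p 0.00225 by edgeR). TUBA1B (-0.29 ± 0.10, adjusted p 0.0434 by edgeR), TUBB2A (-0.77 ± 0.23, 0.0231), TUBB4B (-0.37 ± 0.12, 0.0337) and TUBB6 (-0.85 ± 0.26, 0.0237) responded lower in BON-1, with the call lost in 5, 6, 4 and 3 of the 12 fits that left out 1 library, and the TUBA1A call in 0. Over all genes the split of these calls was 1315 lower and 1461 higher with TMM, and 1823 lower and 1123 higher with library size. TUBA1C, TUBB, TUBB2B, TUBB3 and TUBG1 were not called in this test, though TUBG1 was without BON-1 DOX replicate 2 (adjusted p 0.0466 by edgeR).

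Shares of the isotypes within a library do not depend on how libraries are scaled against each other. With the lengths behind the deposited TPM values, TUBA1A made 47.8% ± 3.06 (SD, n = 3) of the transcripts of the 3 alpha-tubulins in QGP-1 vehicle libraries and 48.5% ± 5.12 with DOX. In BON-1 cells it made 3.59% ± 0.152 with vehicle and 6.97% ± 0.441 with DOX, a range of 3.46 to 3.75% against 6.67 to 7.47%. TUBA1B made 41.3% ± 2.43 in QGP-1 and 75.5% ± 0.481 in BON-1 with vehicle. The DOX libraries of BON-1 thus held a larger share of TUBA1A than any of its vehicle libraries, while the QGP-1 groups overlapped.

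Shares of the beta-tubulins depended on the transcript length used. With the TPM lengths TUBB made 13.1% ± 0.587 of the 6 beta-tubulins in QGP-1 vehicle libraries and 13.6% ± 0.397 in BON-1. With the length of the canonical transcript, chosen after seeing the data, it made 60.2% ± 1.26 and 62.1% ± 0.793. The length that links the deposited TPM of TUBB to its counts was 9.58 times its canonical transcript length of 2515 bases, a ratio above that of 99.7% of genes, and 7.63 to 17.7 times the length implied for each other isotype. TUBB lies at chr6:30717435-30725538, within the major histocompatibility complex, and of 84 genes in and around that complex on chromosome 6, 83.3% had a ratio above 5, with a median of 7.04. Of 12405 other genes 0.580% had such a ratio, with a median of 0.998. The union of the TUBB exons holds 4071 bases. Every beta-tubulin share by TPM length includes the deposited TPM of TUBB and so rests on the longer implied length. Such shares are therefore given only beside those by canonical length.

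TUBB3 made 22.0% ± 0.323 of beta-tubulin in BON-1 with vehicle and 26.3% ± 0.303 with DOX by TPM length, and 11.03% ± 0.337 and 13.5% ± 0.397 by canonical length, without overlap in either case. These shares were compared without a test, and the level of TUBB3 itself was not called. TUBB4B made 41.4% ± 0.700 in QGP-1 and 62.1% ± 0.0989 in BON-1 with vehicle by TPM length, and 17.2% ± 0.300 and 25.8% ± 0.431 by canonical length. Its share was larger in BON-1 under both lengths, although its level was not called different between the lines with TMM.

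**Figure D4:**
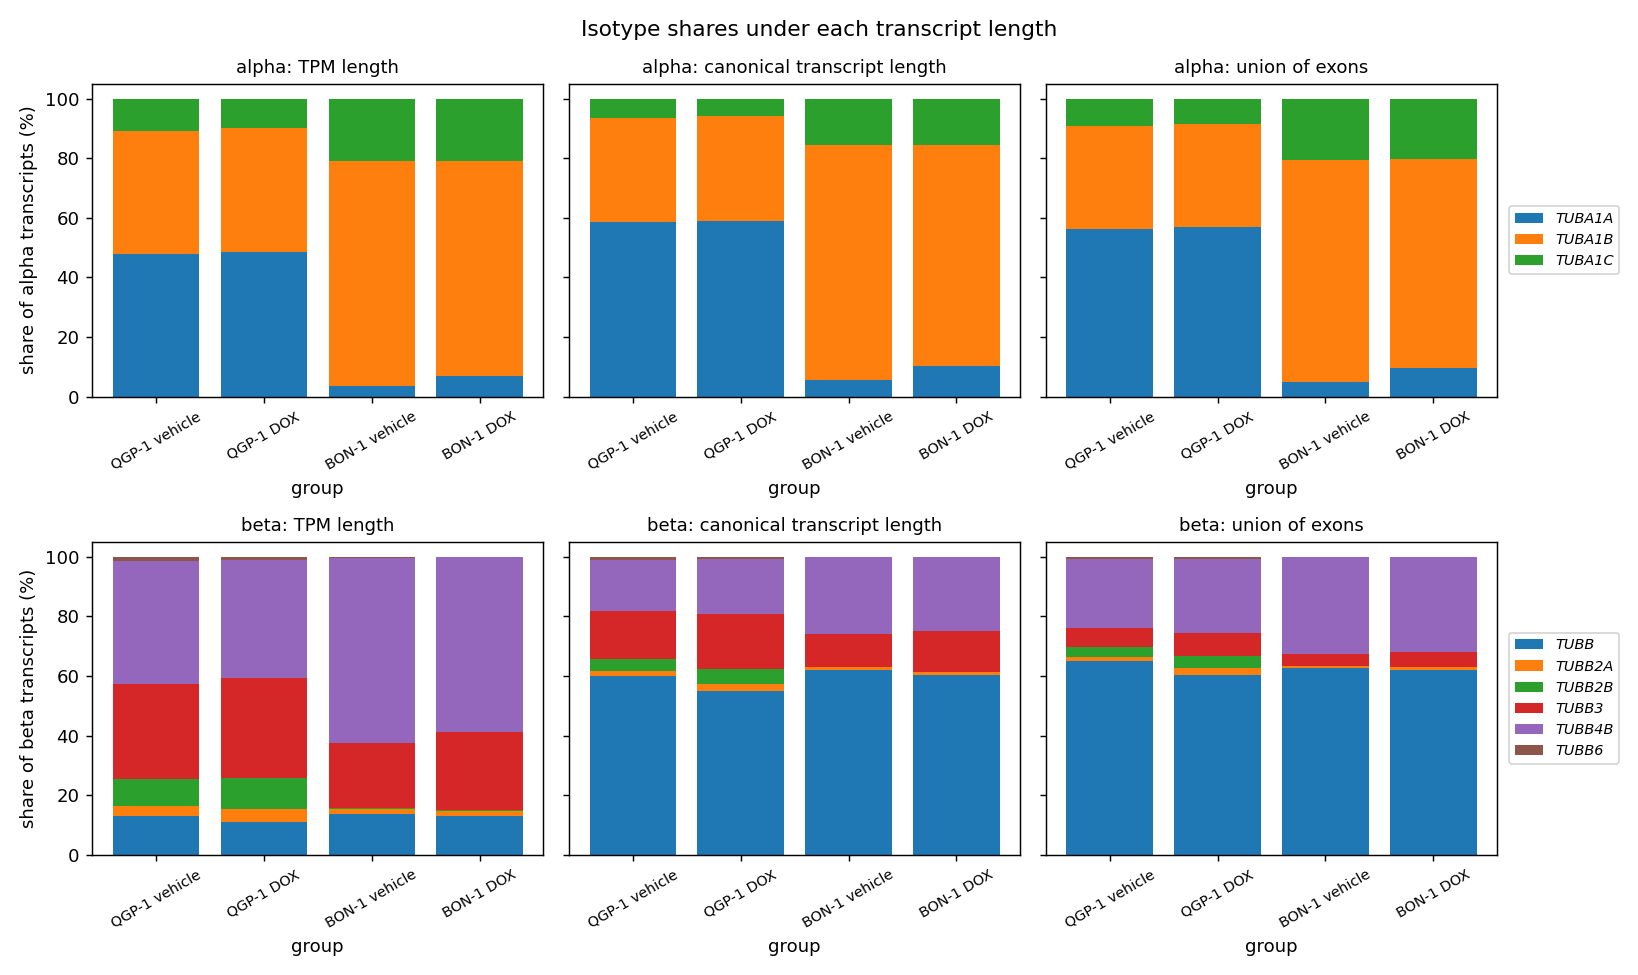
Mean share (percent) of each isotype among the 3 alpha-tubulin transcripts (top) and the 6 beta-tubulin transcripts (bottom) in the 4 groups of 3 libraries, with the lengths behind the deposited TPM (left), the canonical transcript (middle) and the union of exons (right). TUBA1A leads the alpha-tubulins in QGP-1 and TUBA1B in BON-1 under each length, while TUBB goes from 13.1% to 60.2% and 64.9% of the beta-tubulins in QGP-1 vehicle libraries.

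The promoters of TUBB2A, TUBB2B and TUBG1 are shown because the first pair differed by -1.22 and -6.90 on the log2 scale between the lines while sharing most of its coding sequence, and because TUBG1 is the 1 gene of the 10 whose window held an E2F word. Each is the RefSeq window of 250 bases before to 50 after the start site (GRCh38.p14), 5′ to 3′ on the strand of the gene, with matches on either strand to the motifs named below in capitals. They lie at chr6:3157495-3157794 (minus strand), chr6:3227604-3227903 (minus strand) and chr17:42609433-42609732 (plus strand).
TUBB2A: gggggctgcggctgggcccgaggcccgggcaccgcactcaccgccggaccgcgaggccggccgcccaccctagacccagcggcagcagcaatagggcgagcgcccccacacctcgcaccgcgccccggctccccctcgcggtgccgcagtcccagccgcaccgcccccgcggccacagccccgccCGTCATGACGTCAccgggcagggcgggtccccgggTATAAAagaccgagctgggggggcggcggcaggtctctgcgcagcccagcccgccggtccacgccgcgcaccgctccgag
TUBB2B: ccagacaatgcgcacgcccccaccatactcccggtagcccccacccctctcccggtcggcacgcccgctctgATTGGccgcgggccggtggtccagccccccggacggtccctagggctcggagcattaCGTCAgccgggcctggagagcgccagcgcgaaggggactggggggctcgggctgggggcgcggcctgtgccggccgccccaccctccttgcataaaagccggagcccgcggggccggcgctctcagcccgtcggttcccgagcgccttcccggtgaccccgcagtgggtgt
TUBG1: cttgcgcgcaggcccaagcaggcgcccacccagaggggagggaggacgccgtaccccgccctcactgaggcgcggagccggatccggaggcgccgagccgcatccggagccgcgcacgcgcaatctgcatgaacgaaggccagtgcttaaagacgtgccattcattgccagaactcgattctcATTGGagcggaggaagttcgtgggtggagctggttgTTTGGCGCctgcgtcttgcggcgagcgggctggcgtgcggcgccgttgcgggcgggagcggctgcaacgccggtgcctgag
The TUBB2A window held 1 cyclic AMP response element (TGACGTCA), found in 1.85% of 35116 promoters, and 1 TATA box (TATAAA), found in 11.5%. The TUBB2B window held neither of these words, but 1 CCAAT box (CCAAT, 34.6% of promoters) and 1 core of the response element (TGACG, 24.6%), a word that the full element contains and that the TUBB2A window held 3 times, overlaps counted. The TUBG1 window held 1 CCAAT box and 1 E2F word (TTTCCCGC, TTTCGCGC, TTTGCCGC or TTTGGCGC, 3.31% of promoters), and the windows of the other 9 isotypes held 0. TUBG1 was called lower with DOX in both lines on the counts, but so were TUBA1B, TUBA1C and TUBB6, and all 4 were positive in QGP-1 on the TPM scale. The median of all genes there was 0.59, above all 4. A match is a description of the letters and no evidence of binding.

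The other genes of the tubulin system were counted in lists. Of 13 other tubulin genes 7 were tested in QGP-1. TUBA4A (-0.48 ± 0.07, adjusted p 0.000183 by edgeR) and TUBD1, a centriolar delta-tubulin (-0.41 ± 0.15, 0.0460), were lower and TUBE1, the epsilon-tubulin of centrioles (0.52 ± 0.13, 0.00574), was higher. TUBA4B, TUBA8, TUBB4A and TUBG2 were not called, at -0.14 to 0.08. In BON-1 8 were tested, and TUBA4A (-0.47 ± 0.08), TUBA4B (-0.70 ± 0.17), TUBA8 (-0.91 ± 0.31), TUBB4A (-1.25 ± 0.35) and TUBD1 (-0.53 ± 0.16) were lower, TUBE1 was higher (0.38 ± 0.11), and TUBG2 (0.31) and TUBB1 (0.61) were not called. TUBE1 was thus higher with DOX in both lines and TUBA4A and TUBD1 lower in both on the counts, where on the TPM scale TUBA4A and TUBD1 turned positive in QGP-1, at 0.25 and 0.22. Both lay below the median of all genes on that scale (0.59). The TUBD1 call was lost without QGP-1 vehicle replicate 1, 2 or 3 or QGP-1 DOX replicate 1 (adjusted p up to 0.168 by edgeR) and without BON-1 vehicle replicate 2 or BON-1 DOX replicate 2 (up to 0.0720). The TUBA8 call was lost without BON-1 vehicle replicate 2 or 3 or BON-1 DOX replicate 1 (up to 0.0833).

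Of 22 genes of tubulin folding, which hold the CCT chaperonin, prefoldin and the tubulin cofactors, 6 were lower and the other 16 not called in QGP-1 (17.7% of all genes were lower), and 7 were lower and 2 higher in BON-1 (18.3% and 17.0%). The CCT subunits CCT4 (-0.45 ± 0.07), CCT7 (-0.40 ± 0.09) and CCT5 (-0.37 ± 0.07) were lower in QGP-1 on the counts, and all 3 were positive on the TPM scale at 0.29, 0.32 and 0.36. The median of all genes on the TPM scale in QGP-1 was 0.59, above these values. In BON-1 CCT7 (-0.53 ± 0.09) and CCT5 (-0.39 ± 0.08) were lower as well, and CCT4 was not called (-0.13). The cofactor TBCB was lower in BON-1 (-0.57 ± 0.12) and on the counts in QGP-1 (-0.27 ± 0.09, adjusted p 0.0250 by edgeR), where it was positive on the TPM scale (0.44) and the call was lost without any 1 vehicle library or DOX replicate 2 (adjusted p up to 0.140 by edgeR). TBCEL, which resembles cofactor E, was higher in BON-1 (0.60 ± 0.14) and not called in QGP-1 (-0.01). Of the 3 autoregulation genes, all tested in both lines, TTC5 (0.06), CNOT11 (-0.12) and SCAPER, which works with TTC5 (-0.14), were not called in QGP-1. SCAPER was not called in BON-1 either (0.12). In BON-1 TTC5 (-0.32 ± 0.12, adjusted p 0.0353 by edgeR) and CNOT11, a subunit of the CCR4-NOT deadenylase (-0.26 ± 0.08, 0.00775), were lower. The TTC5 call was lost by DESeq2 (adjusted p 0.0598) and without BON-1 vehicle replicate 1 or 3 or BON-1 DOX replicate 2 or 3 (adjusted p up to 0.107 by edgeR).

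Of 21 genes of the gamma-tubulin ring and augmin complexes, the partners of TUBG1, 6 were lower (17.7% of all genes) and 4 higher (17.3%) in QGP-1 and 4 lower (18.3%) and 3 higher (17.0%) in BON-1. HAUS4, an augmin subunit, was lower in both (-0.97 ± 0.14 and -0.64 ± 0.11), and so were the small ring components MZT2B (-0.69 ± 0.19 and -0.87 ± 0.16) and MZT2A (-0.60 ± 0.16 and -1.15 ± 0.18) on the counts. How far the sequences of this pair overlap was not measured. On the TPM scale in QGP-1 MZT2B was at 0.0085 and MZT2A at 0.11, against a median of 0.59 for all genes. The MZT2B call on the counts in QGP-1 was lost without QGP-1 vehicle replicate 1 or 2 (adjusted p up to 0.0540 by edgeR). AKAP9, a centrosomal scaffold, was higher in both lines (0.72 ± 0.08 in QGP-1 and 0.46 ± 0.08 in BON-1). The median log2 fold change of the list was -0.08 in both lines.

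Microtubule-associated proteins bind the lattice or the ends of microtubules. Of 43 tested in QGP-1 4 were lower (17.7% of all genes) and 19 higher (17.3%), with a median log2 fold change of 0.20, and of 39 tested in BON-1 11 were lower (18.3%) and 8 higher (17.0%), with a median of -0.09. In the test of the difference in response 5 of 44 were lower in BON-1, against 7.92% of all genes. The doublecortin relative DCLK1 (1.24 ± 0.12) and MAP1B, a neuronal stabilizer of microtubules (1.02 ± 0.09), were the most raised of those named in QGP-1, and EML2 was lower (-0.72 ± 0.13) on the counts but at 0.0143 on the TPM scale. The median of all genes on the TPM scale in QGP-1 was 0.59. In BON-1 MAP1B was higher as well (0.70 ± 0.08), EML2 was not called (-0.32) and DCLK1 was not tested. CLIP1, a plus-end protein, was higher in both lines (0.56 ± 0.08 in BON-1 and 0.27 ± 0.07 in QGP-1). EML3 was lower in BON-1 (-0.60 ± 0.15) and on the counts in QGP-1 (-0.47 ± 0.13), where it was at 0.18 on the TPM scale and the call was lost without QGP-1 vehicle replicate 1 (adjusted p 0.0704 by edgeR).

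Enzymes of the tubulin code, which modify the tails of tubulin, were called lower in 3 and higher in 5 of 25 in QGP-1 (17.7% and 17.3% of all genes), and lower in 5 and higher in 7 of 24 in BON-1 (18.3% and 17.0%). TTL, the tyrosine ligase of alpha-tubulin, was lower in BON-1 (-0.70 ± 0.08), and ATAT1, the alpha-tubulin acetyltransferase, was higher (0.65 ± 0.13). On the counts neither was called in QGP-1 (0.06 and 0.09). TTLL11, a polyglutamylase, was higher in both lines (0.44 ± 0.15 in QGP-1 and 0.73 ± 0.14 in BON-1), and so was TTLL7 (0.43 ± 0.07 and 0.53 ± 0.09). AGBL5, a deglutamylase, was lower in BON-1 (-0.47 ± 0.12) and on the counts in QGP-1 (-0.53 ± 0.10), where it was at 0.15 on the TPM scale, against a median of 0.59 for all genes. The TTLL11 call in QGP-1 was lost without vehicle replicate 1 or 2 or DOX replicate 1 or 3 (adjusted p up to 0.134 by edgeR).

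**Figure D5:**
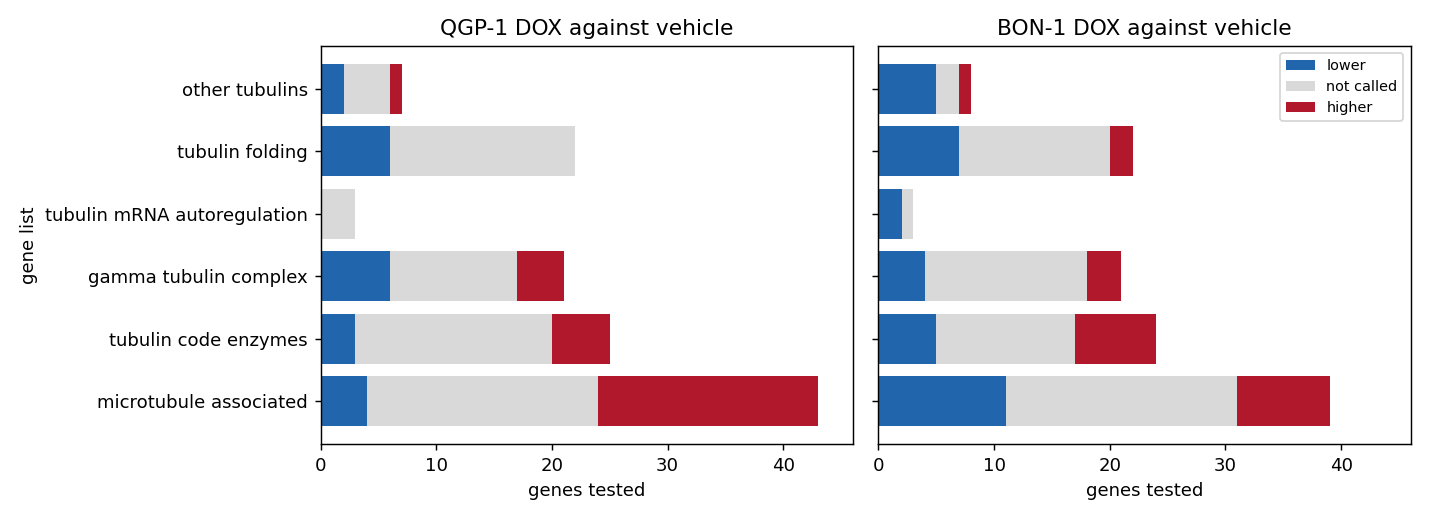
Number of genes tested in each list that were called lower (blue), not called (grey) or called higher (red) by edgeR with DOX against vehicle, in QGP-1 (left) and BON-1 (right). Microtubule-associated proteins show 19 higher and 4 lower in QGP-1 and 8 higher and 11 lower in BON-1; these are calls on the counts, and on the TPM scale most genes are positive in QGP-1.

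The genes whose pattern over the 12 libraries was nearest to that of an isotype were found as the smallest root mean square difference of log2 CPM, after centring each line, among 9703 genes. CYB5R1 was nearest to TUBA1A (0.08), CTNNB1 to TUBA1B (0.05), PHB2 to TUBA1C (0.06), SLC1A5 to TUBB (0.06) and CANT1 to TUBB3 (0.04). SAMD1 was nearest to TUBB4B (0.04), CFL1 to TUBG1 (0.05), GRIPAP1 to TUBB2A (0.14) and GALNS to TUBB6 (0.12). The median difference over all candidates lay between 0.19 for TUBB3 and 0.47 for TUBB6. The second nearest were TCEAL8, GPC4, USP18, HMGA1, DDX56, NUP62, NUCB1, CTNNBL1 and TMEM145 in the same order. These distances describe libraries that share scaling and depth.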

How the data were processed

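RNA-seq of 12 libraries (4 groups of 3) was analysed. The deposited count tables hold raw read counts per gene, made by the authors with STAR on the human genome build GRCh38 from a stranded mRNA library. The deposited TPM values were computed by the authors relative to gene length and library total, and RN7SK, RN7SL1 and RN7SL2 took 78.8 to 80.3% of them in QGP-1 vehicle, 71.2 to 75.4% in QGP-1 DOX, 50.9 to 65.6% in BON-1 vehicle and 53.4 to 74.3% in BON-1 DOX libraries. The counter, its strand setting and the handling of reads with several matches are not given in the sources used here.

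Counts were tested with edgeR 4.0.16 (R 4.3.3) by TMM, filterByExpr and the quasi-likelihood test, with Benjamini-Hochberg adjustment over all genes tested and a threshold of 0.05. DOX was compared with vehicle within each line, and the lines and their difference in response in 1 fit of the 12 libraries, whose TMM factors set the CPM values. The code was tested on simulated data. Alternatives were DESeq2 1.42.0, limma 3.58.1 on log2(TPM + 1) for genes with mean TPM of at least 1, library size, other filters, a replicate block and leaving out each library. The lists' genes named are up to 3 per list and line with the largest absolute change among calls at mean log2 CPM of at least 3, most given in both lines, and every other tubulin tested. The members and lists were chosen with earlier results of these data known. An exact permutation test of 3 against 3 libraries cannot go below p = 0.1, so single values were not tested that way. The genes nearest in pattern to TUBB2B are not reported here.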

Additional observations from a re-analysis of the deposited data

Results flagged for a closer look

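The response to DOX differed between the lines in 5 isotypes by the interaction of line and DOX (edgeR's quasi-likelihood test with Benjamini-Hochberg adjustment, 12 libraries), given as BON-1 minus QGP-1 on the log2 scale. TUBA1A differed by 0.71 (adjusted p 0.00225) and was called in 12 of 12 fits that left out 1 library. TUBA1B differed by -0.29 (0.0434), with adjusted p up to 0.103 and the call lost without QGP-1 vehicle replicate 1, 2 or 3, QGP-1 DOX replicate 2 or BON-1 vehicle replicate 3. TUBB2A differed by -0.77 (0.0231), with adjusted p up to 0.0730 and the call lost without QGP-1 vehicle replicate 2, QGP-1 DOX replicate 2 or 3, BON-1 vehicle replicate 3 or BON-1 DOX replicate 1 or 3. TUBB4B differed by -0.37 (0.0337), with adjusted p up to 0.0911 and the call lost without QGP-1 vehicle replicate 3, QGP-1 DOX replicate 2, BON-1 vehicle replicate 1 or BON-1 DOX replicate 3. TUBB6 differed by -0.85 (0.0237), with adjusted p up to 0.0924 and the call lost without QGP-1 DOX replicate 3, BON-1 vehicle replicate 1 or BON-1 DOX replicate 1.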

How the results depend on the processing

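In BON-1 cells the 7 calls were kept in 6 of 6 fits that left out 1 library, and the line differences kept 7 lower and 2 higher isotypes in 12 of 12. In QGP-1 cells leaving out 1 library gave 3 to 5 lower and 0 to 2 higher isotypes, and in the difference of response 1 to 5 lower. With an absolute log2 fold change of at least 0.5, 0 isotypes were lower and 0 higher in QGP-1, 0 were higher in BON-1 and 2 were lower in the difference of response. Among the isotypes called lower, TUBB (-0.39) and TUBB4B (-0.40) also fell short of 0.5 in BON-1, as did TUBB between the lines (-0.41). DESeq2 called 0 higher in QGP-1 (1 at an unadjusted p under 0.05, TUBB2A).

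The scale mattered most in QGP-1, where limma on log2(TPM + 1) had a median of 0.59 for all genes. It called 0 isotypes lower and 10 higher (0 and 10 at an unadjusted p under 0.05), against 91 and 9166 of 10561 genes by adjusted p. Its log2 fold changes were 0.44 for TUBA1A, 0.44 for TUBA1B, 0.29 for TUBA1C, 0.50 for TUBB, 0.72 for TUBB4B, 0.32 for TUBB6, 0.42 for TUBG1, 0.25 for TUBA4A, 0.33 for TUBA4B, 0.22 for TUBD1, 0.53 for TUBG2, 0.29 for CCT4, 0.32 for CCT7, 0.36 for CCT5, 0.0085 for MZT2B, 0.15 for AGBL5, 0.0143 for EML2, 0.46 for SCAPER, 0.54 for TBCEL, 0.44 for TBCB, 0.58 for CNOT11, 0.11 for MZT2A, 0.18 for EML3, 0.50 for KRT8 and 0.64 for KRT18. Without RN7SK, RN7SL1 and RN7SL2, a choice made after seeing the data, the median of all genes was 0.29. Of all 12928 genes 668 were then lower and 6520 higher, and 0 isotypes were lower and 4 higher (0 and 4 unadjusted). The values were then 0.031 for TUBA1A, 0.0238 for TUBA1B, 0.10 for TUBB, 0.31 for TUBB4B, 0.0214 for TUBB6, 0.0247 for TUBG1, 0.13 for TUBA4B, 0.23 for TUBG2, 0.17 for SCAPER, 0.29 for TBCEL, 0.0499 for TBCB, 0.20 for CNOT11, 0.0886 for KRT8 and 0.23 for KRT18. Others were negative as in the counts but not called, namely TUBA1C (-0.11), TUBA4A (-0.16), TUBD1 (-0.0889), CCT4 (-0.12), CCT7 (-0.0797) and CCT5 (-0.0398). So were MZT2B (-0.40), MZT2A (-0.29), AGBL5 (-0.19) and EML3 (-0.13). In BON-1 the TPM scale gave 0 lower and 0 higher isotypes (3 and 0 unadjusted), against 229 and 29 of 11954 genes by adjusted p. It gave -0.0396 for TUBG2 and -0.20 for SCAPER. Without the 3 RN7 genes the BON-1 split over all 13559 genes was 2395 lower and 1410 higher by adjusted p. Of the 9 isotypes tested in that fit 7 were lower and 1 higher at an unadjusted p under 0.05 (lowest adjusted p 0.000332 by limma). The TPM test was not run between the lines, whose tables were scaled separately. With library size TUBB4B in QGP-1 was at 0.00178 and TBCEL at 0.00104.

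Values near 0 also changed sign when 1 library was left out, with TUBB4B in QGP-1 at -0.0700 to 0.0575, TUBA8 in QGP-1 at -0.12 to 0.21, TBCEL at -0.0577 to 0.0230 and ATAT1 at -0.0063 to 0.20 there, and TUBB2B in BON-1 at -0.74 to 0.0383. The QGP-1 call of TUBB6 was also lost with library size (adjusted p 0.0645 by edgeR), without the low-count filter (0.0535) and with both lines in 1 fit (0.111), and that of TUBD1 with library size (0.0665) and both lines in 1 fit (0.0506). TUBA1A in QGP-1 was called without the filter (0.000721) and with both lines in 1 fit (0.0496), and TUBB without the filter (0.0143). The cause was not tested.

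Libraries with the same replicate number did not deviate together (correlations of -0.02, 0.05 and 0.05 in QGP-1 and -0.04, -0.03 and 0.06 in BON-1), so the numbers were not taken as pairs. With a replicate block 0 isotypes were higher in QGP-1 (1 unadjusted), where TUBB2A was at 0.47 (adjusted p 0.0743 by edgeR), TUBB was called at -0.22 (0.0446) and TUBA8 was at -0.0199. TUBA1B was not called in the difference of response (-0.29, adjusted p 0.0681 by edgeR).

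With the union of exons and with the canonical transcript as length, TUBA1A made 56.2 and 58.6% of the 3 alpha-tubulins in QGP-1 vehicle, 56.7 and 59.1% in QGP-1 DOX, 4.94 and 5.45% in BON-1 vehicle and 9.47 and 10.4% in BON-1 DOX. TUBA1B made 34.7 and 34.8% in QGP-1 vehicle and 74.4 and 78.8% in BON-1 vehicle. Of the 6 beta-tubulins TUBB made 64.9 and 60.2%, 60.4 and 55.003%, 62.6 and 62.1%, and 62.1 and 60.5% in the same order of groups, and TUBB3 6.42 and 15.999%, 7.61 and 18.6%, 4.14 and 11.03%, and 5.16 and 13.5%. TUBB4B made 23.1 and 17.2% in QGP-1 vehicle and 32.3 and 25.8% in BON-1 vehicle. Leaving out 1 library moved the TPM-length shares within 46.1 to 48.9% for TUBA1A in QGP-1 vehicle and 46.3 to 51.3% with DOX, and within 3.50 to 3.65% and 6.71 to 7.12% in BON-1.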
